A study of Mus musculus with 12 samples.

Results

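Chemokines that attract monocytes and T cells were followed in mouse embryonic fibroblasts, at the level of their transcripts. The set was taken by name and not by measured values: Cxcl9, Cxcl10, Cxcl12, Cxcl16, Ccl2, Ccl3, Ccl4, Ccl5, Ccl7 and Ccl20. These 10 genes had 12 probes, of 20660 named genes and 55681 probes on the array. A gene entered the tests when some group had its probe well above background on each of its 3 arrays, which held for 8 of the 10. Ccl4 passed that filter only through the poly(I:C) groups and was at background in untreated cells, so that a difference with treatment was built into its selection. Cxcl9 passed only through wild-type cells with poly(I:C), so that its selection favoured a difference both with treatment and between the genotypes with poly(I:C). Ccl3 and Ccl20 were well above background on none of the 12 arrays and have no measured level.

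Chemokines are small secreted proteins that direct the migration of leukocytes through G protein-coupled receptors. CXCL9 and CXCL10 bind CXCR3 on activated T cells and natural killer cells and are classical targets of interferons. CCL3, CCL4 and CCL5 are inflammatory chemokines that attract T cells, monocytes and macrophages, CCL2 and CCL7 draw monocytes through CCR2, and CCL20 attracts CCR6-bearing lymphocytes and dendritic cells. CXCL12 is a homeostatic chemokine of stromal cells with the receptors CXCR4 and ACKR3, and CXCL16 is made as a membrane-anchored protein that binds CXCR6 and can be shed by ADAM10. Fibroblasts that detect double-stranded RNA in the cytoplasm activate IRF3 and NF-kB, and both act on the promoters of many of these genes.

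The study compared 4 groups of 3 arrays each. GADD34ΔC/ΔC (ΔC) fibroblasts and wild-type fibroblasts were transfected with high molecular weight poly(I:C), a synthetic mimic of viral double-stranded RNA, at 2.5 µg/ml in a lipid reagent and collected after 6 h, and cells of both genotypes were also left untreated. The ΔC allele lacks the C-terminal part of GADD34, the product of Ppp1r15a, through which GADD34 brings protein phosphatase 1 to phosphorylated eIF2α. The 3 arrays of a group came from separate experiments according to the series design. The labels list no control with the lipid reagent alone, so that poly(I:C) and its carrier cannot be told apart, and the labels do not say from how many embryos or lines the cells of a genotype came.

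Levels are given as log2 of the processed intensity after subtraction of the array's 75th percentile, so that 0 is a probe as bright as that percentile. Levels of different probes cannot be compared with each other on this scale. Between 60.4 and 67.3% of probes were well above background on each array, and 0 of the spots for these chemokines were saturated. Ppp1r15a had a level of -6.49 ± 2.10 in ΔC cells with poly(I:C), where 1 of 3 arrays was well above background, and 5.81 ± 0.02 in wild-type cells with poly(I:C) (SD, n = 3 each). Without poly(I:C) it stood at -7.09 ± 1.28 in ΔC cells, with 0 of 3 arrays well above background, and at 2.88 ± 0.42 in wild-type cells. The position of that probe against the deletion is not given in the sources used here. Of 9 fibroblast markers, 8 were well above background on all 3 arrays in ΔC cells with poly(I:C), 7 in wild-type cells with poly(I:C) and 8 in both untreated groups, and Lum was above background in no group. The arrays lay on 5 slides and were scanned on 3 days. For each of the 4 comparisons between groups, 1 slide held both groups with 2 arrays and 1 scan day held both with 3 arrays.

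Promoter windows of RefSeq transcripts (GRCm38.p6, 250 bases before to 50 bases after the start) were available for 5 of the 10 genes: Cxcl9, Cxcl10, Cxcl12, Ccl3 and Ccl20. Letters were searched on both strands for GAAANNGAAA (the interferon-stimulated response element, ISRE), TTCNNNGAA (the gamma-activated site, GAS), TGANTCA (AP-1) and the NF-kB consensus. Among 32851 windows searched, 3.44% held the ISRE letters, 8.30% the GAS letters, 7.81% the AP-1 letters and 4.51% the NF-kB consensus. The windows of Cxcl10, Cxcl12 and Ccl20 are printed here because these genes showed different behaviour in the same cells, a large response to poly(I:C), a genotype difference and no measured level. Cxcl9 is shown as the neighbour of Cxcl10 on chromosome 5, with 1 protein-coding gene between them. Capitals mark the matches. The windows lie at chr5:92348840-92349139 on the minus strand (Cxcl10), chr5:92328030-92328329 on the minus strand (Cxcl9), chr6:117168285-117168584 on the plus strand (Cxcl12) and chr1:83116516-83116815 on the plus strand (Ccl20).
Cxcl10: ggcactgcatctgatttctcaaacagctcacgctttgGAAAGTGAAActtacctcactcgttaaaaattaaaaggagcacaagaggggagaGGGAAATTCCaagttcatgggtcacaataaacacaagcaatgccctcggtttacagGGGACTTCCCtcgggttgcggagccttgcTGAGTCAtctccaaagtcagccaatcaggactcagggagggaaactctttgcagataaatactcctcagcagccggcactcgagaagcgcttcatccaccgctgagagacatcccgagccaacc
Cxcl9: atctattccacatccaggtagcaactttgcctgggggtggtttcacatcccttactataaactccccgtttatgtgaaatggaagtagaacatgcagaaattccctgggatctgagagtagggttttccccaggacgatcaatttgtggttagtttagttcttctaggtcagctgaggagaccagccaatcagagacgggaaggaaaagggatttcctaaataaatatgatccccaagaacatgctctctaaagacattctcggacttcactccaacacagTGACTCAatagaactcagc
Cxcl12: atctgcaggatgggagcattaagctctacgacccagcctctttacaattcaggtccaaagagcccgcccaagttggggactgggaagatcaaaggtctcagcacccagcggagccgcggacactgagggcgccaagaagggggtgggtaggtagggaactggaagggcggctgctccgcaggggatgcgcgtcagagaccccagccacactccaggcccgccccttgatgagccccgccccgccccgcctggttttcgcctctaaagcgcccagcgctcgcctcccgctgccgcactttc
Ccl20: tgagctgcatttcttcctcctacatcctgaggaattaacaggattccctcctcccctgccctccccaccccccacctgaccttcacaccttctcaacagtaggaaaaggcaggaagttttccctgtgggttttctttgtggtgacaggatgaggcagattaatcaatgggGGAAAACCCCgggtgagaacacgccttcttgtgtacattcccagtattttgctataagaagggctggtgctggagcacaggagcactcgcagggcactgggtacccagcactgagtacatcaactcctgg

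The Cxcl10 window held 4 matches, counted from the transcript start at 0. GAAAGTGAAA, the ISRE letters, ran from -213 to -204, and NF-kB matches GGGAAATTCC and GGGACTTCCC ran from -159 to -150 and from -103 to -94. The AP-1 letters TGAGTCA ran from -74 to -68. The Cxcl9 window held 1 match, the AP-1 letters from 31 to 37, downstream of the start. The Ccl20 window held 1 NF-kB match on the opposite strand, from -80 to -71. The windows of Cxcl12 and Ccl3 held 0 matches to the 4 motifs, and the GAS letters were in 0 of the 5 windows. A match is a run of letters in the reference and was not measured in these cells.

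Poly(I:C) raised 6 of the 8 tested chemokines in ΔC cells (Cxcl10, Ccl5, Ccl4, Ccl2, Ccl7 and Cxcl16) and lowered 0, where 1.82% of the 15445 tested genes were called higher and 0.0194% lower (limma, adjusted p under 0.05). It raised 7 in wild-type cells, the same 6 and Cxcl9, and lowered 0, where 5.24% of genes were called higher and 1.53% lower. Ccl4 and Cxcl9 were tested only through poly(I:C) groups, so that their rises were favoured by selection and add nothing to these counts. Apart from them, Cxcl10, Ccl5, Ccl2, Ccl7 and Cxcl16 rose in both genotypes. Cxcl12 was called in neither genotype. Between the genotypes with poly(I:C), Cxcl10, Cxcl9, Ccl4 and Ccl7 were lower in ΔC cells and Cxcl16 and Cxcl12 were higher, where 9.04% of genes were called lower and 11.9% higher. Cxcl9 had been selected through the wild-type group, and without it 3 were lower. Between the genotypes without poly(I:C), Ccl7 was lower in ΔC cells and Cxcl10, Cxcl16 and Cxcl12 were higher, where 10.2% of genes were called lower and 10.9% higher. Cxcl10 was thus higher in ΔC cells before treatment and lower after it. The median of all tested genes was -0.05 in the ΔC response and -0.14 in the wild-type response on the log2 scale, against which the sizes of the changes can be read.

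**Figure D1:**
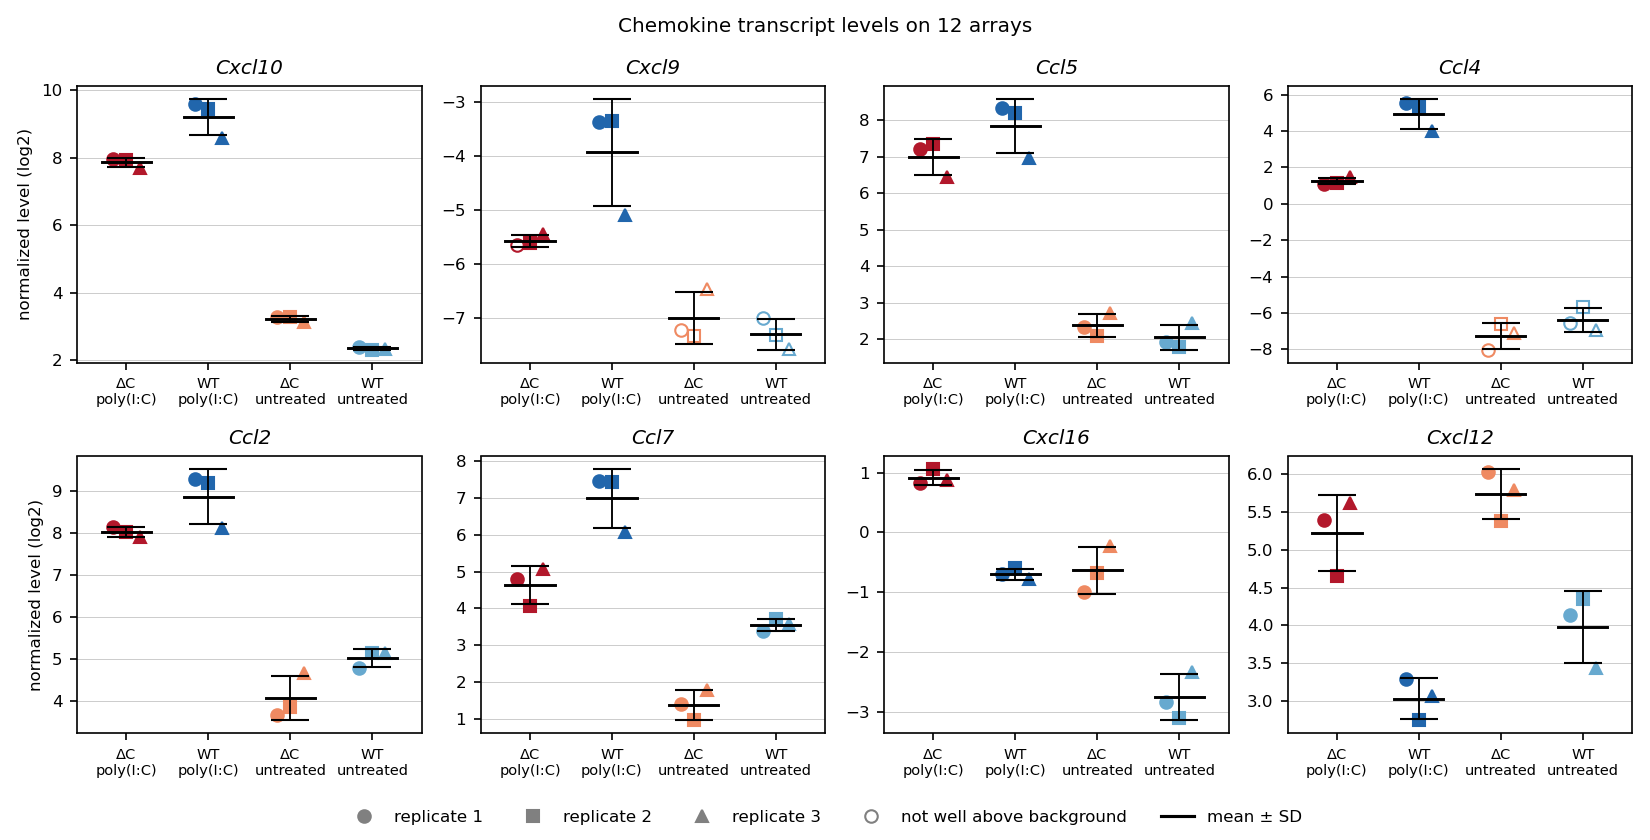
Level (log2, relative to the 75th percentile of the array) of the 8 tested chemokines on the 12 arrays, in the order ΔC with poly(I:C), wild type with poly(I:C), ΔC untreated and wild type untreated; marker shapes are replicates, open markers are not well above background, and lines are mean ± SD of 3 arrays. Cxcl10 lies at 7.71 to 7.98 in ΔC cells with poly(I:C), against 8.60 to 9.60 in wild-type cells with poly(I:C).

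Among the CXCR3 ligands, Cxcl10 was at 7.98, 7.93 and 7.71 in ΔC cells with poly(I:C), against 3.28, 3.27 and 3.12 in untreated ΔC cells. In wild-type cells it was at 9.60, 9.46 and 8.60 with poly(I:C), against 2.40, 2.32 and 2.33 untreated. The 4 groups did not overlap: wild-type cells with poly(I:C) were highest, ΔC cells with poly(I:C) next, then untreated ΔC cells, and untreated wild-type cells were lowest. Poly(I:C) raised Cxcl10 25.0-fold in ΔC cells (log2 change 4.64 ± 0.22, SE, adjusted p = 4.76e-06). In wild-type cells the rise was 117-fold (6.87 ± 0.22, adjusted p = 2.69e-07). With poly(I:C), ΔC cells had 2.55-fold less Cxcl10 than wild-type cells (log2 difference -1.35 ± 0.22, adjusted p = 0.0023). Without it, they had 1.84-fold more (0.88 ± 0.22, adjusted p = 0.0197). The untreated difference kept its size when 1 array was left out at a time (0.85 to 0.93), and its call was lost without untreated replicate 1 or 2 of either genotype (adjusted p = 0.0508 to 0.0682). With arrays scaled to their medians it was 0.95 (adjusted p = 0.0773), and with slide as a block 0.97 (adjusted p = 0.075).

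The response of Cxcl10 was smaller in ΔC cells by 2.23 ± 0.31 on the log2 scale (95% interval of the difference -2.92 to -1.53). Across all genes this did not pass the threshold (adjusted p = 0.113), and with the replicate number as a block it did (adjusted p = 0.0171). By replicate number the response in ΔC cells minus that in wild-type cells was -2.50, -2.49 and -1.69. Since the groups of Cxcl10 did not overlap, the sign of these values was fixed, and only the sizes are of use. The levels with poly(I:C) and the untreated levels both entered this difference, with genotype differences of -1.35 and 0.88.

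Cxcl9 was dim. The tested probe read -5.64, -5.61 and -5.43 in ΔC cells with poly(I:C), where 2 of 3 arrays were well above background, and -3.36, -3.34 and -5.08 in wild-type cells with poly(I:C), where all 3 were. In untreated cells of both genotypes it was well above background on 0 of 3 arrays. Cxcl9 therefore rose at least 3.92-fold in wild-type cells, a bound taken against the lowest signal well above background on each untreated array. The fitted change there was 3.37 ± 0.42 (adjusted p = 0.00102) and rests on background readings. With slide as a block that call was lost (adjusted p = 0.075). In ΔC cells the fitted change was 1.43 ± 0.42 and did not pass (adjusted p = 0.196). The other Cxcl9 probe was called there (2.53, adjusted p = 0.00654), where its bound is at least 1.35-fold, so that the probes differed in the call. Without replicate 3 of wild-type cells with poly(I:C), the tested probe was called there too (adjusted p = 0.012). With poly(I:C), the fitted difference, ΔC minus wild type, was -1.63 ± 0.42 (adjusted p = 0.0216), and the other probe gave -2.46 (adjusted p = 0.00177). Both sizes rest partly on 1 ΔC array at background, and the selection of Cxcl9 through wild-type cells favoured this direction. For the tested probe that genotype call did not hold with slide blocked (adjusted p = 0.166), with scan day blocked (0.0745) or without replicate 1 or 2 of either poly(I:C) group (0.0646 to 0.0896).

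Among the inflammatory chemokines Ccl3, Ccl4 and Ccl5, Ccl4 had the larger genotype difference of those with a measured level. Its levels with poly(I:C) were 1.11, 1.17 and 1.45 in ΔC cells, against 5.53, 5.32 and 3.98 in wild-type cells. In untreated cells it was well above background on 0 of 3 arrays in both genotypes. The poly(I:C) groups did not overlap, and Ccl4 was 12.95-fold lower in ΔC cells (log2 difference -3.70 ± 0.48, adjusted p = 0.000621). The rise with poly(I:C) was at least 162-fold in ΔC cells (adjusted p = 1.28e-05) and at least 1728-fold in wild-type cells (adjusted p = 1.13e-06). The fitted difference between these responses, -2.84 (adjusted p = 0.369), rests on background readings in untreated cells and gives no size. Ccl3, the gene next to Ccl4 on chromosome 11 with 0 protein-coding genes between them, read -8.26 to -6.24 over the 12 arrays, all at background.

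Ccl5 was measured in every sample. Its levels were 7.21, 7.34 and 6.44 in ΔC cells with poly(I:C), against 2.35, 2.09 and 2.72 in untreated ΔC cells. In wild-type cells they were 8.34, 8.21 and 6.98 with poly(I:C), against 1.92, 1.80 and 2.46 untreated. Each poly(I:C) group lay above its untreated group, and within each treatment the genotypes overlapped. Ccl5 rose 24.5-fold in ΔC cells (4.61 ± 0.38, adjusted p = 0.00016). The rise was 55.1-fold in wild-type cells (5.78 ± 0.38, adjusted p = 1.69e-05). The genotypes differed by -0.85 with poly(I:C) (95% interval -1.68 to -0.01, adjusted p = 0.139) and by 0.32 without it (-0.51 to 1.16, adjusted p = 0.57), and neither passed the threshold. Replicate 3 of wild-type cells with poly(I:C), the lowest of its group, decided the first of these: without it the adjusted p was 0.0159. The response in ΔC cells minus that in wild-type cells was -1.17 (95% interval -2.35 to 0.01, adjusted p = 0.918).

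Both CCR2 ligands responded, and they differed in how the genotypes compared. Ccl2 was at 8.14, 8.02 and 7.90 in ΔC cells with poly(I:C), against 3.68, 3.87 and 4.66 in untreated ΔC cells. In wild-type cells it was at 9.29, 9.19 and 8.11 with poly(I:C), against 4.78, 5.16 and 5.16 untreated. The poly(I:C) groups overlapped through replicate 3 of wild-type cells, and the untreated groups did not overlap. Ccl2 rose 15.5-fold in ΔC cells (3.95 ± 0.33, adjusted p = 0.000163) and 14.2-fold in wild-type cells (3.83 ± 0.33, adjusted p = 9.95e-05). The response in ΔC cells minus that in wild-type cells was 0.12, with a 95% interval from -0.90 to 1.144 (adjusted p = 0.996), and its sign turned with arrays scaled to their medians. Between the genotypes Ccl2 differed by -0.84, ΔC minus wild type, with poly(I:C) (-1.57 to -0.12, adjusted p = 0.0939) and by -0.96 without it (-1.69 to -0.24, adjusted p = 0.0611). Both missed the threshold and both passed without replicate 3 of wild-type cells with poly(I:C) (adjusted p = 0.0102 and 0.0191). The untreated difference also passed without replicate 3 of untreated ΔC cells (0.0189). The Ccl2 probe was spotted 10 times on each array, and the coefficient of variation between those spots was 1.62 to 5.99%.

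Ccl7, which lies beside Ccl2 with 0 protein-coding genes between them, was lower in ΔC cells in both conditions. It was at 4.78, 4.07 and 5.06 in ΔC cells with poly(I:C), against 7.45, 7.44 and 6.07 in wild-type cells with poly(I:C). Untreated, it was at 1.41, 0.96 and 1.78 in ΔC cells, against 3.38, 3.72 and 3.56 in wild-type cells. No 2 of the 4 groups overlapped. Ccl7 was 5.09-fold lower in ΔC cells with poly(I:C) (-2.35 ± 0.39, adjusted p = 0.00236) and 4.50-fold lower without it (-2.17 ± 0.39, adjusted p = 0.00359). It rose 9.53-fold with poly(I:C) in ΔC cells (3.25 ± 0.39, adjusted p = 0.00149) and 10.8-fold in wild-type cells (3.43 ± 0.39, adjusted p = 0.000513). The difference between these responses was -0.18, with a 95% interval from -1.39 to 1.04. With slide as a block the genotype differences had adjusted p = 0.0717 with poly(I:C) and 0.0875 without it, and the ΔC response 0.0835. On the slides that held both groups, the genotype difference was -2.66 with poly(I:C) and -2.76 without it.

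Ccl20, the CCR6 ligand, read -8.56 to -7.80 over the 12 arrays, all at background, so that neither a level nor a response can be given. Its promoter window holds the single NF-kB match printed with the sequences.

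Cxcl16 and Cxcl12 were both higher in ΔC cells, with and without poly(I:C). Cxcl16 was at 0.82, 1.06 and 0.87 in ΔC cells with poly(I:C), against -0.70, -0.60 and -0.79 in wild-type cells with poly(I:C). Untreated, it was at -1.0, -0.69 and -0.22 in ΔC cells, against -2.84, -3.09 and -2.34 in wild-type cells. Untreated ΔC cells thus overlapped wild-type cells that had received poly(I:C), and the other groups stood apart. Cxcl16 was 3.06-fold higher in ΔC cells with poly(I:C) (1.61 ± 0.22, adjusted p = 0.000931) and 4.35-fold higher without it (2.12 ± 0.22, adjusted p = 0.000157). Poly(I:C) raised it 2.93-fold in ΔC cells (1.55 ± 0.22, adjusted p = 0.00506) and 4.18-fold in wild-type cells (2.06 ± 0.22, adjusted p = 0.000392). The difference between these responses was -0.51 (95% interval -1.21 to 0.19). The ΔC response did not pass with slide blocked (adjusted p = 0.204) or scan day blocked (0.061), while within the 1 slide that held both groups it was 1.82.

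Cxcl12 was the tested member that poly(I:C) raised in neither genotype. It was at 5.39, 4.66 and 5.62 in ΔC cells with poly(I:C), against 3.29, 2.74 and 3.07 in wild-type cells with poly(I:C). Untreated, it was at 6.03, 5.38 and 5.80 in ΔC cells, against 4.14, 4.34 and 3.43 in wild-type cells. Every ΔC array lay above every wild-type array. Cxcl12 was 4.57-fold higher in ΔC cells with poly(I:C) (2.19 ± 0.31, adjusted p = 0.00101) and 3.40-fold higher without it (1.76 ± 0.31, adjusted p = 0.00315). The second probe, which matches another Cxcl12 transcript, gave 2.21 (adjusted p = 0.000725) and 1.80 (adjusted p = 0.00217). The change with poly(I:C) was -0.51 in ΔC cells (95% interval -1.19 to 0.17, adjusted p = 0.589) and -0.94 in wild-type cells (-1.62 to -0.26, adjusted p = 0.091). The wild-type groups did not overlap, and without untreated wild-type replicate 3 that change passed (adjusted p = 0.0303). The untreated genotype call did not hold when slide (adjusted p = 0.0754) or scan day (0.0524) was blocked, and on the slide that held both untreated groups the difference was 1.04.

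**Figure D2:**
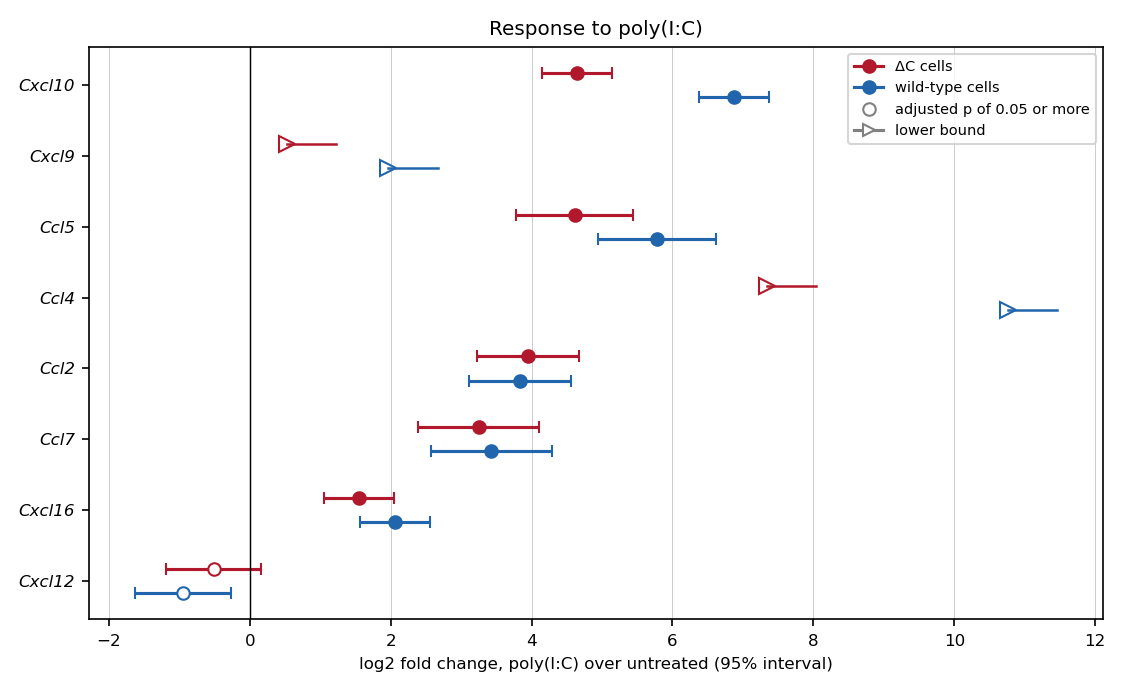
Change with poly(I:C) (log2, poly(I:C) over untreated, with 95% intervals) of each measured chemokine in ΔC cells and wild-type cells; open circles had an adjusted p of 0.05 or more and arrowheads are lower bounds. Arrowheads are drawn whatever the adjusted p, and that of Cxcl9 in ΔC cells is not a called change (adjusted p = 0.196). Cxcl10 lies at 4.64 in ΔC cells and 6.87 in wild-type cells, Ccl2 at 3.95 and 3.83, and Cxcl12 lies below 0 in both.

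**Figure D3:**
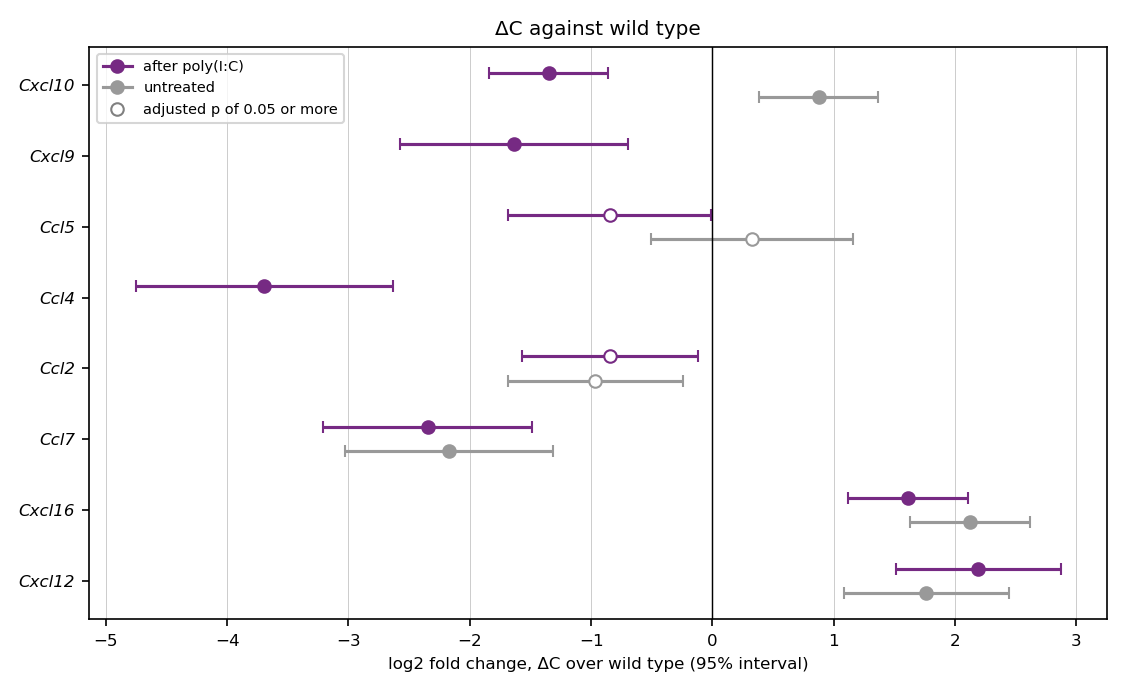
Difference between the genotypes (log2, ΔC over wild type, with 95% intervals) of each measured chemokine with poly(I:C) and untreated, where Cxcl9 and Ccl4 were at background untreated and are not drawn; open circles had an adjusted p of 0.05 or more. Cxcl16 and Cxcl12 lie above 0 in both conditions, Ccl7 and Ccl2 below 0 in both, and Cxcl10 at -1.35 with poly(I:C) and 0.88 untreated.

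The difference between the responses of the genotypes passed the threshold for 0 of the 8 chemokines, where 0.0194% of all genes were called. At an unadjusted p under 0.05 there were 3 (Cxcl10, Ccl4 and Cxcl9), and for Ccl4 and Cxcl9 the untreated readings were at background. The share of all genes under that unadjusted threshold was not taken, so that this count has nothing to be read against. The median of the 8 fitted differences was -0.84, against 0.07 over all genes. It includes Ccl4 and Cxcl9, whose fitted differences rest on background readings, and so gives no size for the set. The differences of the other chemokines ran from -2.23 (Cxcl10) to 0.43 (Cxcl12). Without replicate 3 of wild-type cells with poly(I:C), Cxcl10, Ccl4 and Cxcl9 were called. The adjusted p of Cxcl10 was then 0.00016, while over all genes 10 were called higher and 200 lower.

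That array was the lowest of its group for 7 of 8 chemokines measured there. In ΔC cells with poly(I:C), replicate 3 was the lowest for 3 of 7. Other responding genes shared the pattern: of 809 genes called higher in the wild-type response, 67.1% were lowest on replicate 3 in ΔC cells with poly(I:C) and 90% in wild-type cells with poly(I:C). Over all tested genes these shares were 35.6% in ΔC cells and 33.7% in wild-type cells. The cause was not tested. On the slide that held both groups of a comparison, with 1 array of each, Cxcl10 changed with poly(I:C) by 4.69 in ΔC cells and 7.15 in wild-type cells, and Ccl5 by 4.87 in ΔC cells and 6.41 in wild-type cells. The genotype difference with poly(I:C) on its slide was -1.62 for Cxcl10, -4.41 for Ccl4, 1.52 for Cxcl16 and 2.11 for Cxcl12. Since the groups of these called changes did not overlap, their sign on a slide was fixed, and only the sizes are of use.

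The genes whose levels ran most closely with each chemokine were taken as the 3 with the highest Pearson correlation over the 12 arrays, among 13119 genes well above background on every array. These are descriptions, since the arrays share treatments, genotypes and slides. For Cxcl10 they were Isg15 (r = 0.995), Ifit1 (0.992) and Ccl5 (0.991), of which the first and second are interferon-stimulated genes. For Ccl5 they were Csrnp1 (0.993), Gbp5 (0.991) and Cxcl10 (0.991). Ccl2 ran instead with immediate-early genes, Egr1 (0.990) and Junb (0.989), and with Gem (0.986). Ccl7 ran with Lif (0.971), Fam110b (0.961) and Tiparp (0.960). For Cxcl16 the closest was Zmynd15 (0.976), its neighbour on chromosome 11 with 0 protein-coding genes between them, followed by Dusp16 (0.970) and Arhgef4 (0.968). For Cxcl12 they were Pth1r (0.980), Dact3 (0.976) and Snx18 (0.971).

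Receptors, decoys and processing enzymes of these chemokines were a list of 16 genes, of which 15 had a probe and 8 were tested. Poly(I:C) raised 1 of the 8 in each genotype and lowered 0: Ccrl2, an atypical receptor that does not signal as classical chemokine receptors do, by 2.63 ± 0.48 in ΔC cells (log2, adjusted p = 0.0214) and 2.57 ± 0.48 in wild-type cells (adjusted p = 0.012). Over all genes 1.82% rose and 0.0194% fell in ΔC cells, and 5.24% rose and 1.53% fell in wild-type cells. Between the genotypes 2 of the 8 fell and 0 rose in both conditions, where 9.04% of all genes fell with poly(I:C) and 10.2% without it. Cxcr6, the receptor of CXCL16, was at -3.82 ± 1.37 in ΔC cells with poly(I:C) and 0.09 ± 0.98 in wild-type cells with poly(I:C) (SD, n = 3 each). The difference was -3.91 ± 0.83 (SE, adjusted p = 0.00864), and without poly(I:C) it was -3.24 ± 0.83 (adjusted p = 0.0207). Cxcl16 and the gene of its receptor thus differed in opposite directions. Adam17, a sheddase of membrane proteins, differed by -0.78 ± 0.11 with poly(I:C) (adjusted p = 0.00127) and by -0.58 ± 0.11 without it (adjusted p = 0.0058). The medians of the 8 genes were 0.45 in the ΔC response and 0.16 in the wild-type response, and -0.54 with poly(I:C) and -0.60 without it between the genotypes, where all genes had 0.01 and -0.06. Blocking on slide or on scan day removed the Ccrl2 and Cxcr6 calls, and blocking on slide the untreated Adam17 call (adjusted p from 0.0506 to 0.535). The Ccrl2 calls were also lost without replicate 1 or 2 of either ΔC group, or of wild-type cells with poly(I:C), in their own comparison (0.0631 to 0.109), and the untreated Cxcr6 call without replicate 1 or 2 of either group (0.0563 to 0.0832).

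Of 18 other chemokines of lymphocytes and myeloid cells, 17 had a probe and 10 were tested. Poly(I:C) raised 1 of them, Ccl1, a ligand of CCR8, at least 3.39-fold in ΔC cells (adjusted p = 0.00035) and at least 3.48-fold in wild-type cells (adjusted p = 0.000151), and it lowered 0. Ccl1 was at background in untreated cells and was tested only through the poly(I:C) groups, so that this difference was built into its selection. Of all tested genes, poly(I:C) raised 1.82% and lowered 0.0194% in ΔC cells, and raised 5.24% and lowered 1.53% in wild-type cells. Between the genotypes with poly(I:C), 4 of the 10 fell in ΔC cells and 1 rose, where 9.04% of all genes fell and 11.9% rose. Ccl9, a CCR1 ligand of the mouse, was at -2.45 ± 0.79 in ΔC cells and 0.48 ± 0.14 in wild-type cells (SD, n = 3 each), a difference of -2.93 ± 0.35 (SE, adjusted p = 0.000364). Ccl6, its relative, was at least 4.33-fold lower (adjusted p = 0.000688), but it was tested only through the wild-type groups, which favoured this direction. Ccl8 and Cx3cl1, named after their values were seen, were the other 2 that fell (-2.0 and -0.91, adjusted p = 0.0358 and 0.0203). Ccl27a, a ligand of CCR10, rose by 1.26 ± 0.31 (adjusted p = 0.0169). Without poly(I:C) 2 of the 10 fell and 1 rose, where 10.2% of all genes fell and 10.9% rose. Those that fell were Ccl9, with a log2 difference of -3.36 ± 0.35 (adjusted p = 0.000142) and Ccl6, with -1.75 ± 0.34 (adjusted p = 0.0056), a size that rests partly on 1 ΔC array at background, while Ccl27a rose by 1.47 ± 0.31 (adjusted p = 0.00838). Blocking on slide or on scan day removed the Ccl27a calls (adjusted p from 0.0506 to 0.133) and the untreated Ccl6 call (0.138 and 0.0589). Without poly(I:C)-treated wild-type replicate 1 or 2, or ΔC replicate 1, the Ccl27a call with poly(I:C) was lost too (0.062 to 0.073). The medians of the 10 genes were -0.57 with poly(I:C) and -0.34 without it between the genotypes, and 0.21 in the ΔC response and 0.44 in the wild-type response.

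Genes that induce chemokine transcription or restrain it were a list of 21, of which 20 were tested. Poly(I:C) raised 11 in ΔC cells and 15 in wild-type cells and lowered 0, with medians of 1.76 and 1.98 over the 20. Over all genes 1.82% rose in ΔC cells and 5.24% in wild-type cells. Ifnb1, the gene of interferon beta, was at 5.15 ± 0.15 in ΔC cells with poly(I:C) and 6.31 ± 0.65 in wild-type cells with poly(I:C) (SD, n = 3 each). It was well above background on 1 of 3 arrays in untreated ΔC cells and 0 of 3 in untreated wild-type cells. The fitted rise in ΔC cells was 12.11 ± 0.67 (adjusted p = 1.28e-05) and rests partly on background readings, and in wild-type cells Ifnb1 rose at least 4744-fold (adjusted p = 3.04e-06). Ifnb1 and Tnf were tested only through the poly(I:C) groups, so that a difference with treatment was built into their selection. Between the genotypes with poly(I:C) it differed by -1.17, which did not pass (adjusted p = 0.251). Tnf, the other of the largest rises in ΔC cells, rose by 3.79 ± 0.41 there (adjusted p = 0.000792), with untreated readings mostly at background. Irf7, a transcription factor of the interferon response, rose by 5.92 ± 0.73 in wild-type cells (adjusted p = 0.000852), while in ΔC cells its change of 3.31 ± 0.73 did not pass (adjusted p = 0.0531). The difference between these Irf7 responses, -2.62, did not pass either (adjusted p = 0.813).

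With poly(I:C), 5 of the 20 fell in ΔC cells relative to wild-type cells and 0 rose, with a median of -0.65, where 9.04% of all genes fell and 11.9% rose. Blocking on the replicate number gave 9 that fell. Irf1, a transcription factor induced by interferons, was at 5.07 ± 0.03 in ΔC cells and 6.60 ± 0.47 in wild-type cells (SD, n = 3 each). Its difference was -1.52 ± 0.31 (SE, adjusted p = 0.00726). Cebpb, Nfkbia and Irf9, named after their values were seen, also fell. Untreated, 1 fell and 0 rose, where 10.2% of all genes fell: Cebpb differed by -1.33 ± 0.18 (adjusted p = 0.000675), and the median was -0.13. The difference between the responses passed for 0 of the 20, and for 1 with the replicate number as a block, where over all genes 4 were then called higher and 37 lower. Its median was -0.28. The Irf1 and untreated Cebpb calls did not hold when slide was blocked (adjusted p = 0.0804 and 0.0511).

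**Figure D4:**
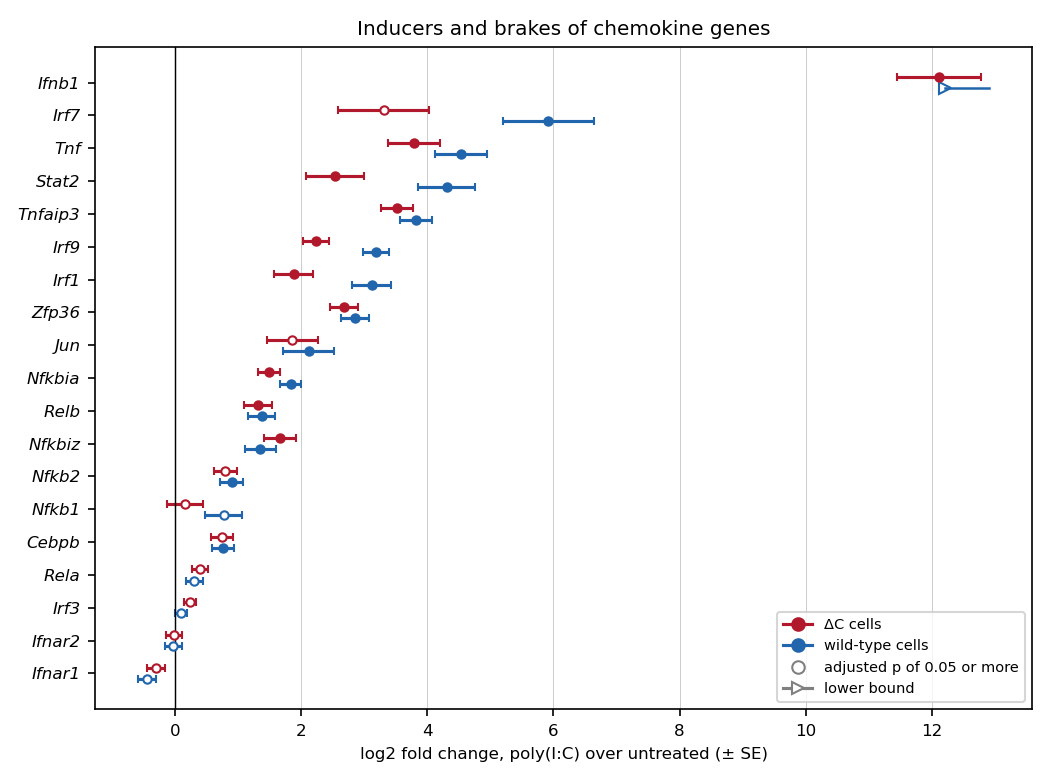
Change with poly(I:C) (log2, poly(I:C) over untreated, ± SE) of tested inducers and brakes of chemokine genes, 1 left out, in ΔC cells and wild-type cells; open circles had an adjusted p of 0.05 or more and the arrowhead is a lower bound. Ifnb1 is at the top, at 12.11 in ΔC cells and at least 4744-fold in wild-type cells.

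Some markers of other cell types differed between the genotypes. In these bulk samples, fewer cells of a type and less RNA per cell cannot be told apart. Of 10 leukocyte and macrophage markers, 9 had a probe and 7 were well above background on all 3 arrays in each group, with Lyz2 on none. Their summed level, in units of the array's 75th percentile, was 13.1 to 14.8 in ΔC cells and 16.7 to 18.7 in wild-type cells with poly(I:C). Untreated it was 11.7 to 15.3 in ΔC cells and 23.4 to 26.8 in wild-type cells. The sums of the genotypes did not overlap in either condition. Of the 8 tested leukocyte markers, 1 was called lower in ΔC cells with poly(I:C), Cd14 (-0.77, adjusted p = 0.0126), where Ptprc and Adgre1 stood at 0.55 and 0.13. Without poly(I:C) 3 were called lower, Cd14 (-1.17, adjusted p = 0.00138), Itgam (-0.84, adjusted p = 0.00232) and Csf1r (-1.19, adjusted p = 0.00968). Over all genes 9.04% were called lower with poly(I:C) and 10.2% without it. The fibroblast sum was 251 to 413 in ΔC cells and 485 to 551 in wild-type cells with poly(I:C), and 241 to 433 in ΔC cells and 546 to 593 in wild-type cells untreated. Of 8 tested fibroblast markers, 2 were called lower in ΔC cells with poly(I:C), where 9.04% of all genes were: Col3a1 (-3.56, adjusted p = 0.00427) and Vim (-0.54, adjusted p = 0.0104). Without it 3 were called lower, where 10.2% of all genes were: Col3a1 (-3.64, adjusted p = 0.0037), Vim (-0.63, adjusted p = 0.00485) and Pdgfrb (-1.89, adjusted p = 0.0145). Thy1 (2.22 and 1.37) and Pdgfra (0.27 and 0.05) had values above 0 in both conditions and were not called. Of 4 endothelial markers 2 were above background in every group, with Cdh5 and Tek on none, and their sum overlapped between the genotypes in both conditions. It was 12.4 to 17.9 in ΔC cells and 15.6 to 16.3 in wild-type cells with poly(I:C), and 12.4 to 15.8 in ΔC cells and 15.1 to 22.1 in wild-type cells untreated. Of 5 epithelial markers, 4 were well above background on all 3 arrays of both ΔC groups and 3 in both wild-type groups, where Epcam and Cdh1 were at background. Epcam was at least 7.36-fold higher in ΔC cells with poly(I:C) (adjusted p = 0.0223) and 7.71-fold without it (0.0162). Cdh1 was at least 1.735-fold higher with it (0.000917) and 1.573-fold without it (0.00113). Over all genes 11.9% and 10.9% were called higher. Both were tested only through the ΔC groups, which favoured this direction. Krt8 went the other way, with -1.32 with poly(I:C) (adjusted p = 0.0552) and -1.91 without it (adjusted p = 0.0118), sizes that rest partly on ΔC arrays at background. Krt8 was tested only through the wild-type groups. The sum of the 5 was 1.31 to 3.01 in ΔC cells and 0.501 to 3.66 in wild-type cells with poly(I:C), and 1.54 to 3.61 in ΔC cells and 0.416 to 4.55 in wild-type cells untreated. These values stand beside the genotype differences of the chemokines, and their part in the result was not tested.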

How the data were processed

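Transcripts of 12 samples were measured on Agilent 1-colour arrays, 3 per group, from 200 ng of RNA labelled with Cy3. Per the file headers, Feature Extraction 10.7.3.1 read the scans, and the deposited scanner files hold a background-subtracted intensity for every spot and other flags (brightness over background, saturation, outliers). A further deposited table holds log2 values; its columns have 1 common median (5.28) and 1 common maximum (19.1), and its scaling steps are not stated. The submitters' processing notes name limma, with no version given in the sources used here.

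Here intensities were put on the log2 scale, spots of a probe were averaged, and the array's 75th percentile over 55681 probes was subtracted. Each array had 91 to 163 outlier spots; leaving them out removed 107 probes. Names came from RefSeq accessions for 27235 probes. The brightest probe stood for its gene, and limma 3.58.1 (R 4.3.3) tested 15445 genes (12 arrays, a mean for each group, 8 residual degrees of freedom, two-sided, Benjamini-Hochberg over all genes, called under 0.05), after a check on simulated data. No pseudocount was added. "At least N-fold" replaces background readings by each array's lowest signal well above background. An adjusted p beside such a bound is that of the fitted change, since the bound itself was not tested. Arrays give no count depth, so precision is limited by how many there are; p-values measure the spread between these arrays.

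The chemokines and gene lists were chosen with earlier results of these data known. Every chemokine is named, with the 3 genes most like it, and each list is represented by its 2 largest called rises and falls per comparison. Same-numbered samples deviated together in every pair of groups that was compared (r = 0.115 to 0.651), so that replicate numbers may pair samples. The main fit did not include this pairing, and its p-values leave it out. The replicate number as a block was an alternative. Alternatives varied the scaling, background, filter, probe summary, blocks, weights, samples and source of values. The normexp alternative used the spots' median intensity in place of the planned mean, which was not used here. The arrays' design positions were not used. 1 gene of the lists is counted but not reported here by name.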

Additional observations from a re-analysis of the deposited data

How the results depend on the processing

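Each comparison was refitted under 26 or 27 alternatives. The 36 chemokine results gave 960 values, of which 76 changed their side of the threshold or their sign. Of these, 10 reversed, 0 of them from a called change, and all in differences between responses. That of Ccl2 was -0.0907 with arrays scaled to their medians, -1.04 in the authors' deposited table, -0.0375 with array weights and -0.26 to 0.42 leaving out 1 array at a time. That of Ccl7 was -0.64 to 0.11 leaving out 1 array at a time, and that of Cxcl12 was -0.43 in the authors' deposited table. The number of chemokines called in the wild-type response was 5 to 8. With the authors' deposited table it was 0 in the ΔC response, 1 between the genotypes with poly(I:C) and 0 between them untreated, where slide as a block gave 1. In that table the column for ΔC poly(I:C) replicate 1 correlated at 0.949 with its own scanner file and at 0.974 with that of untreated wild-type replicate 1, so that the scanner files were used. Without that column the table gave 6 calls in the ΔC response, 5 and 4 between the genotypes with and without poly(I:C), and 7 in the wild-type response. Leaving out 1 array at a time gave 6 to 7 calls in the ΔC response, 7 to 8 in the wild-type response, 5 to 8 and 3 to 5 between the genotypes with and without poly(I:C), and 0 to 3 for the difference between responses. For that difference, 1 chemokine was called with quantile normalization, 1 with trend and robust empirical Bayes, 2 with normexp, 3 with array weights and 3 without the 4 arrays numbered 3. Over all genes, quantile normalization called 1 higher and 2 lower, as did trend and robust empirical Bayes, and normexp 2 and 9. Array weights called 196 higher and 498 lower over all genes, and leaving out the 4 arrays numbered 3 called 94 and 360. The replicate block called 1 chemokine, Cxcl10, where over all genes 4 were called higher and 37 lower. It changed no other call of these chemokines. Of inducers and brakes it called 9 between the poly(I:C) groups and 1 for the difference between responses. Fitting only the groups compared gives no value for that difference. Array weights, or leaving out the 4 arrays numbered 3, also brought in the Ccl5 and Ccl2 differences with poly(I:C) (adjusted p from 0.00129 to 0.00476). Of 20 results for named genes of the other lists, 533 values held 46 lost calls and 0 reversals. Over the alternatives, called inducers and brakes numbered 0 to 18 in the ΔC response (11 as reported), 10 to 18 in the wild-type response (15), 0 to 14 and 0 to 7 between the genotypes with and without poly(I:C) (5 and 1) and 0 to 3 for the difference (0). Called receptors and enzymes numbered 0 to 4 (1), 0 to 2 (1), 0 to 4 (2), 0 to 6 (2) and 0 to 1 (0) in the same order, and other chemokines 0 to 3 (1), 1 to 6 (1), 2 to 8 (5), 1 to 5 (3) and 0 to 1 (0). Over all genes, 0 to 1256 rose and 0 to 1414 fell in the ΔC response, and 222 to 2482 rose and 2 to 4263 fell in the wild-type response. Between the genotypes 288 to 3786 rose and 268 to 3145 fell with poly(I:C), 549 to 3545 rose and 277 to 3863 fell untreated, and 0 to 196 and 0 to 498 did for the difference. Readings at background limit what Cxcl9, Ccl4, Ccl3 and Ccl20 can show.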
